A study of Mus musculus with 8 samples.

Results

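The manchette and nuclear envelope genes described here are 8 mouse genes whose proteins act where the head of the sperm takes its shape: Hook1, Rimbp3, Meig1, Katnal1, Sun3, Sun5, Spag4 and Ccdc42. They were chosen by name from what is known of their proteins, but with earlier results of these data known. All 8 were found among the 17127 genes of the deposited expression table after its Ensembl identifiers had been matched to GENCODE mouse symbols. The study asked which genes change in the testis when Iqch, which encodes a protein with a calmodulin-binding IQ motif, is mutated. Whole testes of mice aged 4 months were sequenced by RNA-seq, with 1 library per mouse. The wild-type group held 4 libraries, wild types 1 to 4. The mutant group held 3 libraries, mutants 1, 2 and 4, from homozygous mice labelled Iqch-/-, which carry a small deletion in a late coding exon of Iqch made with CRISPR-Cas9 in B6CBAF1 zygotes. The deletion is carried by every cell type of the mutant testis, not by germ cells alone. A further mutant library, mutant 3, has no values in the deposited CPM and was not analysed here. The study left out 1 mutant as an outlier after normalization, so the spread among mutants is that of the libraries kept.

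When a round spermatid begins to elongate, a skirt of microtubules called the manchette forms around its nucleus, hanging from a perinuclear ring. The manchette carries cargo towards the growing tail and, through complexes that cross the nuclear envelope, is tied to the nucleus as it narrows. In these complexes a SUN-domain protein of the inner nuclear membrane binds a KASH-domain protein (a nesprin) of the outer membrane, and the nesprin reaches the cytoskeleton. The testis has its own SUN-domain proteins, Sun3, Spag4 (also called Sun4) and Sun5, beside Sun1 and Sun2, which most tissues use. Loss of manchette or SUN proteins in mice is known for misshapen heads, detached tails and male infertility.

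Levels are given as CPM (read counts scaled so that each library sums to 1000000), and the libraries held between 32064384 and 37551057 reads. The targeted gene Iqch averaged 208 ± 11.3 CPM (SD) in the 4 wild types and 67.3 ± 2.25 CPM in the 3 mutants, a log2 fold change of -1.63 (limma FDR 1.92e-10), and every mutant lay below every wild type. Markers of several cell types moved with genotype, where 14.2% of all genes tested were called lower and 36.3% higher (limma FDR below 0.01). The 9 elongating spermatid markers (protamines, transition proteins and genes of the tail) were all called lower and summed to 25017 to 26384 CPM in wild type against 16001 to 18247 CPM in the mutants, and 6 of 10 round spermatid markers were called lower, with sums of 1407 to 1564 CPM against 1251 to 1328 CPM. The 7 Sertoli cell markers tested were all called higher (sums of 1468 to 1585 CPM against 3053 to 3223 CPM), as were 6 of 7 Leydig cell markers (1021 to 1224 CPM against 4296 to 4472 CPM) and the 6 macrophage markers that reached 2.2 CPM in both genotypes (list sums of 68.3 to 74.2 CPM against 170.5 to 197 CPM). Of 9 spermatocyte markers, 1 was called lower and 1 higher. Called higher were 3 of 8 spermatogonium markers, 1 of 4 myoid and 2 of 4 endothelial markers tested, and none of these was called lower. In whole testis, fewer cells of a type and less RNA per cell cannot be told apart.

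The sequences upstream of the 3 testis SUN-domain genes and of Meig1, the gene with the largest fold change of the 8, are shown. Whether the 8 genes are transcribed at the same stage was not tested. Many genes of spermatids are known to be driven by CREM, a factor that binds the cyclic AMP response element TGACGTCA, or its core TGACG. Each window holds the 250 bases before the start of the canonical GENCODE transcript in GRCm39, read 5′ to 3′ on the strand of the gene, with capitals marking TGACGTCA or TGACG. They are Spag4 at chr2:155906914-155907163 (plus strand), Sun3 at chr11:8989590-8989839 (minus strand), Sun5 at chr2:153713005-153713254 (minus strand) and Meig1 at chr2:3420167-3420416 (minus strand).
Spag4: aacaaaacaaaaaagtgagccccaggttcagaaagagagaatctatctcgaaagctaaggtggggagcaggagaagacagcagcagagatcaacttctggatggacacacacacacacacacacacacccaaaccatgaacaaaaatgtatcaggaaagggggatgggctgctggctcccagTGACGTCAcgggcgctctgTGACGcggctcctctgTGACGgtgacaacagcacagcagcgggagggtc
Sun3: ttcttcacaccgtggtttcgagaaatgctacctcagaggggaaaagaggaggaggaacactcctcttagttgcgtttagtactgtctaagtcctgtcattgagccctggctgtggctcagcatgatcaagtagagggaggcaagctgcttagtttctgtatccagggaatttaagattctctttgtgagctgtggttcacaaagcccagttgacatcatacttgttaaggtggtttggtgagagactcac
Sun5: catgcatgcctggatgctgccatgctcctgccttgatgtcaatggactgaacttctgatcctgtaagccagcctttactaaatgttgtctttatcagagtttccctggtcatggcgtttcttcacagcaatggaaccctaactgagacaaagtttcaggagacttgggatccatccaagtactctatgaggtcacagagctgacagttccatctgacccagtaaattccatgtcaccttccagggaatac
Meig1: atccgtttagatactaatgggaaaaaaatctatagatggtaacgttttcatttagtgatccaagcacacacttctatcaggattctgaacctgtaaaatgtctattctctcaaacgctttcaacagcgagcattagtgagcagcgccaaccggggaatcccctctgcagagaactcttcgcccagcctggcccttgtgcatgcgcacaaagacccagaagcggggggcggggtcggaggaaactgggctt
The Spag4 window held TGACGTCA, 68 bases before the start, and the core TGACG on 4 occasions when both strands were read, with the full element counted on each strand. The other 7 genes, Hook1, Rimbp3, Katnal1 and Ccdc42 included, held neither on either strand. Among the 17043 windows of the same length upstream of tested genes, 1.9% held TGACGTCA and 20.9% held TGACG. These are matches of letters in a window and no measure of binding.

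All 8 genes had a lower mean in the mutants on the deposited CPM scale, by 7.53% for Sun5 up to 21.7% for Meig1, with 13.5% for Hook1 and 15.4% for Rimbp3 between them. After median-of-ratios scaling all 8 were called lower, where 25.1% of all genes tested were called lower and 27.0% higher. After centring on round spermatid markers, Meig1 and Rimbp3 stayed below 0 and none of the 8 was called in either direction. There 3.91% of all genes tested were called lower and 52.1% higher. After centring on elongating spermatid markers all 8 were called higher, as were 86.8% of all genes tested. Fold changes are on the log2(CPM + 0.1) scale, which understates the change of low genes, and a gene is called at an FDR below 0.01 over all 17126 genes tested with limma. On the CPM scale Meig1, Rimbp3, Hook1 and Ccdc42 were called lower and none of the 8 higher, where 14.2% of all genes tested were called lower and 36.3% higher. Over the 8 genes the median log2 fold change was -0.19, against 0.12 over all genes tested, of which 38.0% had a negative value. In 5 of the 8 genes every mutant lay below every wild type, against 19.5% of all genes tested (42.8% had every mutant above). At an FDR below 0.05, 7 of the 8 were called lower, against 19.8% of all genes tested called lower and 43.0% higher. Summed, the 8 genes took 3197 to 3270 CPM of a wild-type library and 2643 to 2715 CPM of a mutant one. Each gene had between 2200 and 49326 reads per library, so that counting error alone was at most 2.13% of a value.

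**Figure D1:**
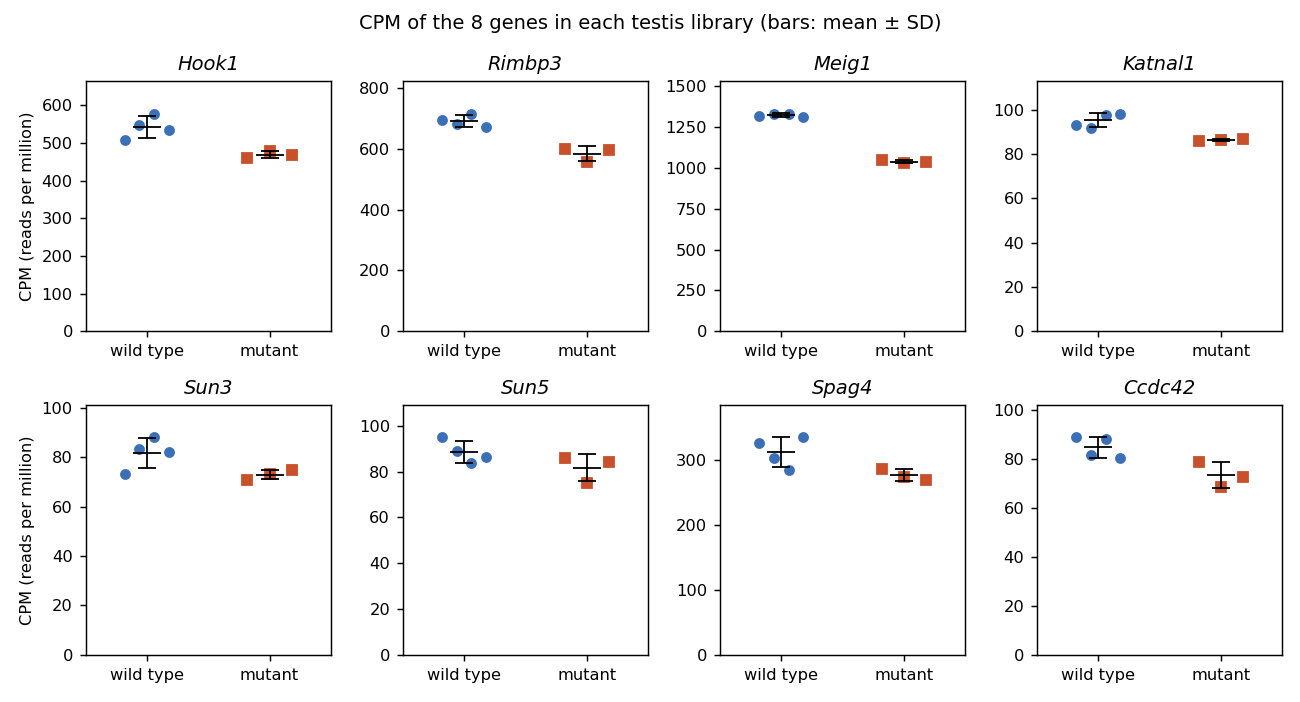
CPM of each of the 8 genes in each library, on axes that start at 0, with wild types 1 to 4 as circles, mutants 1, 2 and 4 as squares and bars for the mean ± SD. On this scale the mutant squares of Meig1 sit between 1029 and 1048 CPM, far below its circles, while those of Sun5, Sun3 and Spag4 overlap the circles.

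Meig1 is a small protein that helps to build a platform on the manchette for cargo bound for the tail. It occupies 3405007 to 3425021 of chromosome 2 in GRCm39, on the minus strand (ENSMUSG00000026650). Its level was 1319, 1333, 1333 and 1314 CPM in wild types 1 to 4 and 1048, 1029 and 1037 CPM in mutants 1, 2 and 4. The mutants were tightly grouped and all well below the wild types, and the gap was many times the spread within either group (1325 ± 9.96 against 1038 ± 9.49 CPM, SD). The log2 fold change was -0.35 with a standard error of 0.03 (limma FDR 1.36e-06). The exact two-sided permutation test gave p = 0.0286, the smallest it can give with 4 mice against 3.

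Rimbp3 is a manchette-bound protein that binds Hook1, and its gene is an unbroken block of 5380 bp, 17026467 to 17031846 of chromosome 16 on the plus strand (ENSMUSG00000071636). The wild types held 695, 683, 716 and 670.3 CPM and the mutants 599.6, 557 and 597 CPM. There was no overlap, and mutant 2 was the lowest. Rimbp3 fell by 0.24 on the log2 scale, with a standard error of 0.04 (limma FDR 1.99e-04, exact permutation p = 0.0286).

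Hook1 is a linker between microtubules and cargo that helps to position the manchette on the nucleus, and it is the gene mutated in the abnormal spermatozoon head mouse. It occupies 95855418 to 95913651 of chromosome 4 in GRCm39, on the plus strand (ENSMUSG00000028572). Its level was 507, 548, 578 and 536 CPM in wild types 1 to 4 and 459, 479.6 and 468 CPM in mutants 1, 2 and 4. The mutants were all lower, and the lowest wild type, wild type 1, was nearest to them. The log2 fold change was -0.21 with a standard error of 0.05 (limma FDR 0.00153), and the exact permutation test gave p = 0.0571.

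Ccdc42 is found at the manchette, the perinuclear ring and the head-to-tail coupling of spermatids. Its gene, at 68477847 to 68490134 of chromosome 11 on the plus strand (ENSMUSG00000045915), had 88.7, 81.4, 88.0 and 80.2 CPM in wild types 1 to 4. The mutants held 78.8, 68.6 and 72.7 CPM. They were all below the wild types, but mutant 1 missed wild type 4 by little. The log2 fold change was -0.21 with a standard error of 0.06 (limma FDR 0.00802, exact permutation p = 0.0286). Its call was lost without wild type 1 (limma FDR 0.0253), wild type 2 (0.0112), wild type 3 (0.0212), mutant 2 (0.0464) or mutant 4 (0.028), with log2 fold changes from -0.22 to -0.16.

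Katnal1 is a catalytic katanin that cuts microtubules, and it is known to act in Sertoli cells as well as in germ cells. It occupies 148808394 to 148931957 of chromosome 5 in GRCm39, on the minus strand (ENSMUSG00000041298). Wild types 1 to 4 held 93.1, 91.8, 97.7 and 98.2 CPM and mutants 1, 2 and 4 held 85.7, 86.4 and 86.8 CPM. The groups did not overlap and the mutants were nearly level. On the CPM scale Katnal1 was still not called, at a log2 fold change of -0.14 with a standard error of 0.04 (limma FDR 0.0136). The exact permutation test gave p = 0.0286.

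The 3 SUN-domain genes of the testis were lower in the mutants by less than the 4 called genes, and none of them was called on the CPM scale. Sun3 sits in the part of the nuclear envelope that faces the manchette, and its gene occupies 8964633 to 8998991 of chromosome 11 in GRCm39, on the minus strand (ENSMUSG00000040985). Its level was 73.3, 83.2, 88.0 and 81.9 CPM in wild types 1 to 4 and 70.9, 73.2 and 74.8 CPM in mutants 1, 2 and 4. Wild type 1 lay within the range of the mutants, and without it Sun3 was called, with a log2 fold change of -0.21 (limma FDR 0.00433) in place of -0.16 with a standard error of 0.06 (limma FDR 0.0338).

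Spag4 is needed for the manchette to be held at the nucleus, and its gene occupies 155907095 to 155913924 of chromosome 2 in GRCm39, on the plus strand (ENSMUSG00000038180). With 327, 304, 286 and 336 CPM in wild types 1 to 4 and 287, 274 and 270.3 CPM in mutants 1, 2 and 4, it had several times the reads of Sun3 or Sun5. Wild type 3 lay just below mutant 1, the only crossing of the groups. The log2 fold change was -0.17 with a standard error of 0.05 (limma FDR 0.0137), and without wild type 3 it was -0.22 and called (limma FDR 0.00183).

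Sun5, which joins the tail to the nuclear envelope and not the manchette, differed least of the 8. It occupies 153698103 to 153713020 of chromosome 2 in GRCm39, on the minus strand (ENSMUSG00000027480). Wild types 1 to 4 held 94.9, 89.0, 83.6 and 86.3 CPM and mutants 1, 2 and 4 held 86.0, 74.9 and 84.3 CPM. Only mutant 2 lay below every wild type, and the difference was not called (log2 fold change -0.11 with a standard error of 0.06, limma FDR 0.115). The exact permutation p was 0.171 for Sun5, 0.0857 for Sun3 and 0.0857 for Spag4.

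Levels of different genes can be set side by side only per length of transcript. Per kilobase of the longest annotated transcript, the wild-type level was 628 ± 4.72 CPM for Meig1 (SD, n = 4), 128 ± 3.59 for Rimbp3, and then 73.7 ± 5.29 for Spag4, 73.5 ± 4.03 for Sun5 and 73.4 ± 4.00 for Hook1. The last 3 overlapped from mouse to mouse and could not be ordered. Sun3 (31.1 ± 2.33) and Ccdc42 (31.0 ± 1.61) followed, also without separation, and Katnal1 was lowest at 14.3 ± 0.485 CPM per kilobase. Counted over the union of all annotated exons, Meig1 (342), Rimbp3 (128) and Katnal1 (7.87) kept their places, while Sun5 (69.1), Hook1 (56.8) and Spag4 (48.0) were then apart. The mutants gave 492 CPM per kilobase of the longest transcript for Meig1 and 13.0 for Katnal1.

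How far the 8 genes differed among themselves was asked with ratios of 2 of them in the same library, which no scaling of the library can move. Of the 28 pairs, 6 had mutant and wild-type ratios that did not overlap, and all 6 held Meig1. The ratio of Meig1 to each of the other 7 genes had a lower mean in the mutants, with log2 changes from -0.24 (Sun5) to -0.11 (Rimbp3). The ratio to Katnal1 changed by -0.21 with a standard error of 0.03 and that to Rimbp3 by -0.11 with a standard error of 0.03, and these 2 pairs reached the smallest exact permutation p of 0.0286. After Benjamini-Hochberg adjustment over the 28 pairs the exact value was 0.267, so none passed a threshold of 0.05. Among the 21 pairs without Meig1 there were 0 without overlap, and no ratio changed by more than 0.13.

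**Figure D2:**
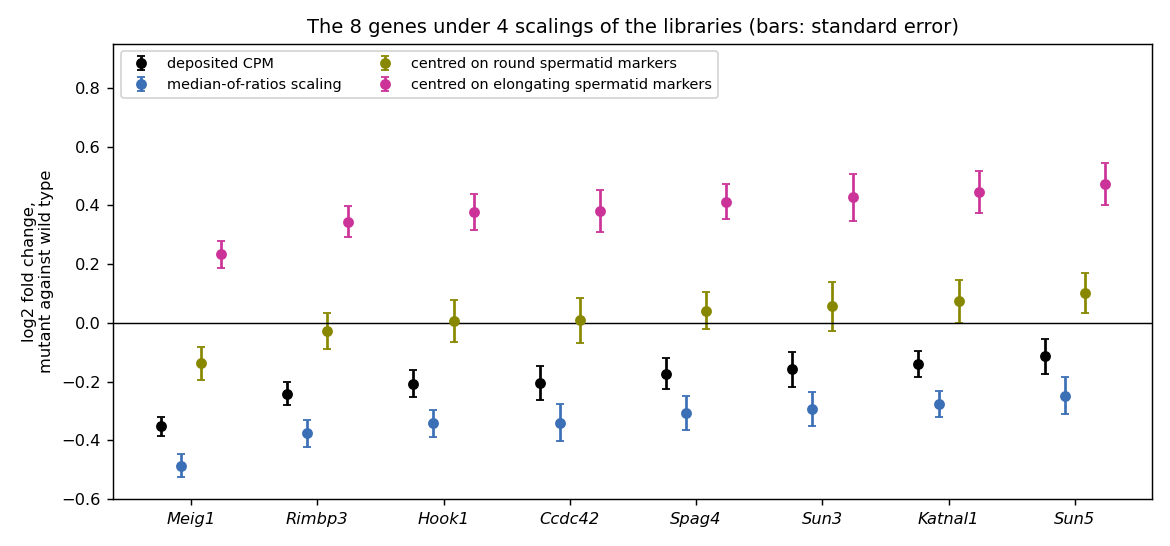
Log2 fold change of each of the 8 genes, mutant against wild type, with standard errors, under 4 scalings of the libraries and ordered by the value on the deposited CPM scale. All 8 values are negative on the CPM scale and lower still after median-of-ratios scaling, lie between -0.14 and 0.10 after centring on round spermatid markers, and are positive after centring on elongating spermatid markers.

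The direction of the 8 genes depended on what they were measured against. Rescaling each library by its median-of-ratios size factor moved the median of all genes from 0.12 to -0.01, and all 8 were then called lower, from -0.25 (Sun5, limma FDR 0.00402) to -0.49 (Meig1, limma FDR 5.01e-07). On that scale 25.1% of all genes tested were called lower and 27.0% higher (4294 and 4627 genes, against 2428 and 6212 on the CPM scale). The study normalized its samples before testing with edgeR and DESeq2, and its numbers of downregulated and upregulated genes were also close. With each library centred on the mean log2 level of the 10 round spermatid markers, the log2 fold change of Hook1 was 0.01, of Ccdc42 0.01, of Rimbp3 -0.03, of Spag4 0.04, of Sun3 0.06, of Katnal1 0.07 and of Sun5 0.10, with standard errors of 0.06 to 0.08. Meig1 had -0.14 with a standard error of 0.06 (limma FDR 0.0401). None of the 8 was called in either direction there, while 3.91% of all genes tested were called lower and 52.1% higher, at a median of 0.34. Centred on the 9 elongating spermatid markers, the 8 genes were instead called higher, from 0.23 (Meig1, limma FDR 8.01e-05) to 0.47 (Sun5, limma FDR 2.67e-06), where 86.8% of all genes tested were called higher and 1.19% lower at a median of 0.71. A scaling shifts all 8 genes by nearly the same amount, so their order was the same under all 4, with Meig1 at the low end and Sun5 at the high end.

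A further 16 genes of manchette assembly, transport and microtubule cutting divided in direction on the CPM scale. There 5 of the 16 were called lower, 2 higher and 9 were not called (14.2% of all genes tested were lower and 36.3% higher), and the list had a median of -0.12 against 0.12 over all genes. The largest negative values were those of Katnal2, a katanin relative (104 ± 5.49 against 81.5 ± 2.31 CPM, log2 fold change -0.34, limma FDR 7.61e-05), and of Spag16, an axonemal protein carried by Meig1 (126 ± 2.78 CPM in wild type and 97.5 to 104 CPM in the mutants, -0.33, limma FDR 2.83e-05). Rnf19a, a ubiquitin ligase of the manchette, fell by 0.18 (limma FDR 0.00158). Cep131, a centriolar satellite protein, fell by 0.24 (limma FDR 0.00309) and Clip1, which tracks microtubule ends, by 0.14 (limma FDR 0.00409).

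The 2 genes that rose on the CPM scale were Hook3, a paralog of Hook1 that is used in many tissues, and Ift20, a subunit of the intraflagellar transport complex at the Golgi and the manchette. Hook3 was at 19.4, 19.1, 19.9 and 21.5 CPM in wild types 1 to 4 and 28.0, 32.7 and 31.1 CPM in mutants 1, 2 and 4 (log2 fold change 0.61, limma FDR 1.01e-05). Ift20 went from 46.0 ± 1.09 to 59.0 ± 2.81 CPM (0.36, limma FDR 5.73e-05). For both genes every mutant lay above every wild type. Among the genes not called were Ccdc181 (-0.14, limma FDR 0.0127), Iqcg (-0.15, limma FDR 0.0141), Spef2 (-0.15, limma FDR 0.0885), Hook2 (-0.10, limma FDR 0.0876) and Katna1, a catalytic katanin (0.15, limma FDR 0.0628). After median-of-ratios scaling 11 of the 16 were called lower (25.1% of all genes tested) and 2 higher (27.0%), after centring on round spermatid markers 0 lower (3.91%) and 5 higher (52.1%), and after centring on elongating spermatid markers 16 higher (86.8%).

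Several of the smaller calls among these 16 genes rested on single libraries, and 3 in place of 5 were called lower without wild type 2, without mutant 2 or without mutant 4. Over all genes, 1976 of 17114, 1934 of 17097 and 1970 of 17087 were called lower in these fits, against 2428 of 17126 with every library. Cep131 was lost without wild type 2 (limma FDR 0.011), mutant 2 (0.0166) or mutant 4 (0.0133), and Clip1 without wild type 1 (0.0112), wild type 2 (0.0117), mutant 1 (0.0179), mutant 2 (0.0132) or mutant 4 (0.0106). Ccdc181 (limma FDR 0.00745) was called without wild type 4, and Iqcg (limma FDR 0.00758) without wild type 1.

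The other nuclear envelope genes, 14 in all, had a share called higher on the CPM scale that was near that of all genes. Of the 13 that reached the minimum of 2.2 CPM in both genotypes, 1 was called lower and 4 higher, where 14.2% and 36.3% of all genes tested were, and their median was 0.07 on the log2 scale, against 0.12 over all genes. Sun2, the SUN-domain protein of most somatic cells, was at 44.6, 42.6, 39.8 and 46.4 CPM in wild types 1 to 4 and at 79.7, 85.8 and 74.1 CPM in mutants 1, 2 and 4. All mutants were far above all wild types, and Sun2 rose by 0.88 on the log2 scale (limma FDR 1.91e-07). Sun1, which also anchors telomeres in meiosis, was at 141 ± 5.60 and 136 ± 5.64 CPM and was not called (-0.05, limma FDR 0.372). Of the nesprins, Syne2 rose from 168 ± 15.7 to 238 ± 8.38 CPM (0.50, limma FDR 2.12e-05) and Syne1 was not called (0.07). Syne4, the fourteenth gene, reached the minimum in the mutants alone, at 1.36 ± 0.212 CPM in wild types and 3.31 ± 1.39 CPM in mutants, so its call is not counted here. Emd, the emerin gene, rose by 0.37 (limma FDR 1.86e-04).

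Syne3 was called higher (0.30, limma FDR 0.00846) although its groups overlapped. That call was lost without wild type 1 (limma FDR 0.0217), wild type 2 (0.023), wild type 3 (0.0236), mutant 1 (0.0239), mutant 2 (0.0419) or mutant 4 (0.0103). The gene called lower was Dpy19l2, an inner nuclear membrane protein that fixes the acrosome to the nucleus, which fell from 202 ± 15.4 to 166 ± 2.18 CPM (-0.29, limma FDR 6.23e-04). The lamin genes Lmna (0.16), Lmnb1 (0.15) and Lmnb2 (0.03) were not called. Counts under the other scalings are over all 14 genes and so include Syne4, which was higher in the mutants and reached the minimum in them alone. Under median-of-ratios scaling 3 of the 14 were called lower (25.1% of all genes tested) and 4 higher (27.0%). After centring on round spermatid markers 0 were lower (3.91%) and 9 higher (52.1%), and after centring on elongating spermatid markers 14 were higher (86.8%).

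**Figure D3:**
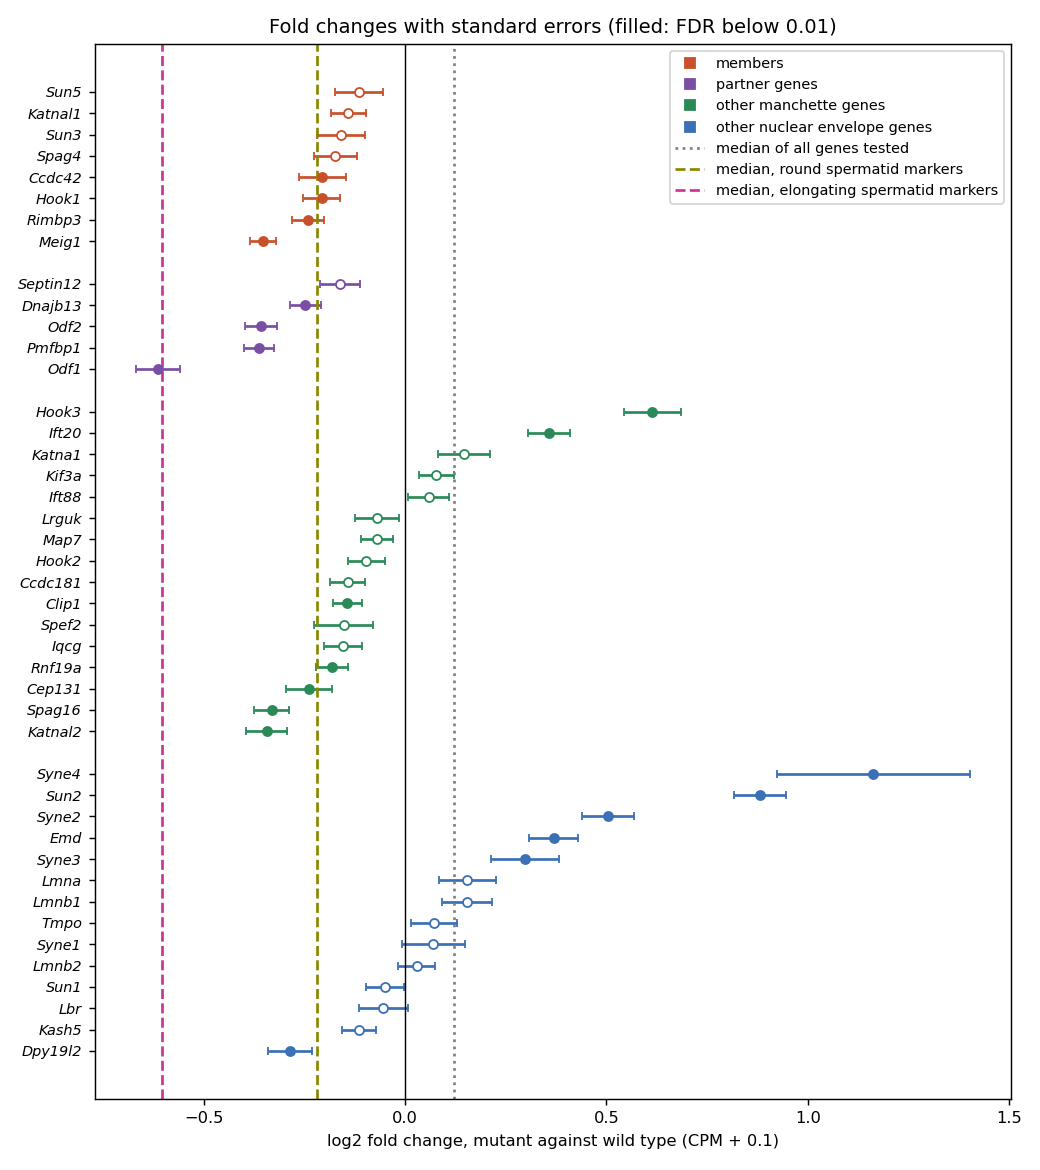
Log2 fold change on the deposited CPM scale, mutant against wild type, with standard errors, for the 8 genes (labelled members), the 5 partner genes and the other manchette and nuclear envelope genes, filled where called at an FDR below 0.01. The 8 genes lie between -0.35 and -0.11, near the round spermatid marker median of -0.22 and above the elongating spermatid marker median of -0.60, while Hook3 and Sun2 lie far to the right, as does Syne4, which reached the minimum level in the mutants alone. After centring on round spermatid markers the values of the 8 genes lie between -0.14 and 0.10, and after centring on elongating spermatid markers all 8 are positive.

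Partners of the 8 proteins were lower as well on the CPM scale and after median-of-ratios scaling, but not after centring on elongating spermatid markers. Of 5 genes on the CPM scale, 4 were called lower and 0 higher (14.2% and 36.3% of all genes tested), and the median was -0.36 on the log2 scale against 0.12 over all genes. Odf1, an outer dense fibre protein of the tail that binds Spag4 and Ccdc42, fell from 1415 ± 70.9 to 926 ± 72.6 CPM (-0.61, limma FDR 9.29e-07). Odf2, of the same fibres, fell from 4308 ± 72.2 to 3366 ± 169.6 CPM (-0.36, limma FDR 7.73e-06). Pmfbp1, which works with Sun5 at the head-to-tail junction, fell by 0.36 (limma FDR 3.36e-06) and Dnajb13, a chaperone that binds Sun5, by 0.25 (limma FDR 1.22e-04). Septin12, a filament protein of the sperm annulus that binds Spag4, had -0.16 and was not called (limma FDR 0.0119), but was called without wild type 3 (-0.20, limma FDR 0.00208). After median-of-ratios scaling 5 of 5 were called lower (25.1% of all genes tested), after centring on round spermatid markers 1 was (3.91%), and after centring on elongating spermatid markers 4 were called higher (86.8%).

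Ratios within a library set each of the 8 genes against its closest relatives and partners, 14 pairs in all, of which 7 reached the smallest exact permutation p of 0.0286 (0.0571 after Benjamini-Hochberg adjustment over the 14 pairs). The ratio of Hook1 to Hook3 was 27.2 ± 2.02 in wild type and 15.4 ± 0.901 in the mutants, a log2 change of -0.82 with a standard error of 0.07. The ratio of Hook1 to Hook2 was 4.28 ± 0.290 and 3.95 ± 0.206 and overlapped (exact permutation p = 0.171). Against Sun2, all 3 testis SUN-domain genes had much lower ratios in the mutants. For Spag4 the ratio was 7.22 ± 0.0771 in wild type and 3.48 ± 0.250 in the mutants (log2 change -1.05), for Sun3 1.89 ± 0.247 and 0.918 ± 0.0817 (-1.04) and for Sun5 2.05 ± 0.124 and 1.03 ± 0.139 (-0.99). Against Sun1 the changes were small, -0.12 for Spag4 (no overlap, exact permutation p = 0.0571), -0.11 for Sun3 (p = 0.371) and -0.06 for Sun5 (p = 0.286).

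The shift of Hook1 against Hook3 and of the testis SUN-domain genes against Sun2 thus came with a rise of the more widely used paralog in CPM. In the same mutant libraries the summed Sertoli cell markers were at 2.04 times and the summed Leydig cell markers at 3.97 times their wild-type level. Such sums weigh the most abundant markers most. Log2 fold changes of single markers ran from 0.36 to 1.09 (median 0.85) for Sertoli cells and from 0.24 to 3.21 (median 1.42) for Leydig cells. The part of these cells in the ratios was not tested.

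Other ratios set genes that act together side by side. Meig1 to its cargo Spag16 was 10.5 ± 0.233 in wild type and 10.4 ± 0.311 in the mutants (log2 change -0.02 with a standard error of 0.03, exact permutation p = 0.457). Rimbp3 to its binding partner Hook1 changed by -0.03 with a standard error of 0.06 (exact permutation p = 0.6). For the katanins, Katnal1 to Katna1 changed by -0.29 (exact permutation p = 0.0286) and Katnal1 to Katnal2 by 0.20, without overlap (p = 0.0571). Spag4 and Ccdc42 had higher ratios to Odf1 in every mutant than in any wild type, with log2 changes of 0.44 and 0.41 (exact permutation p = 0.0286 for each).

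**Figure D4:**
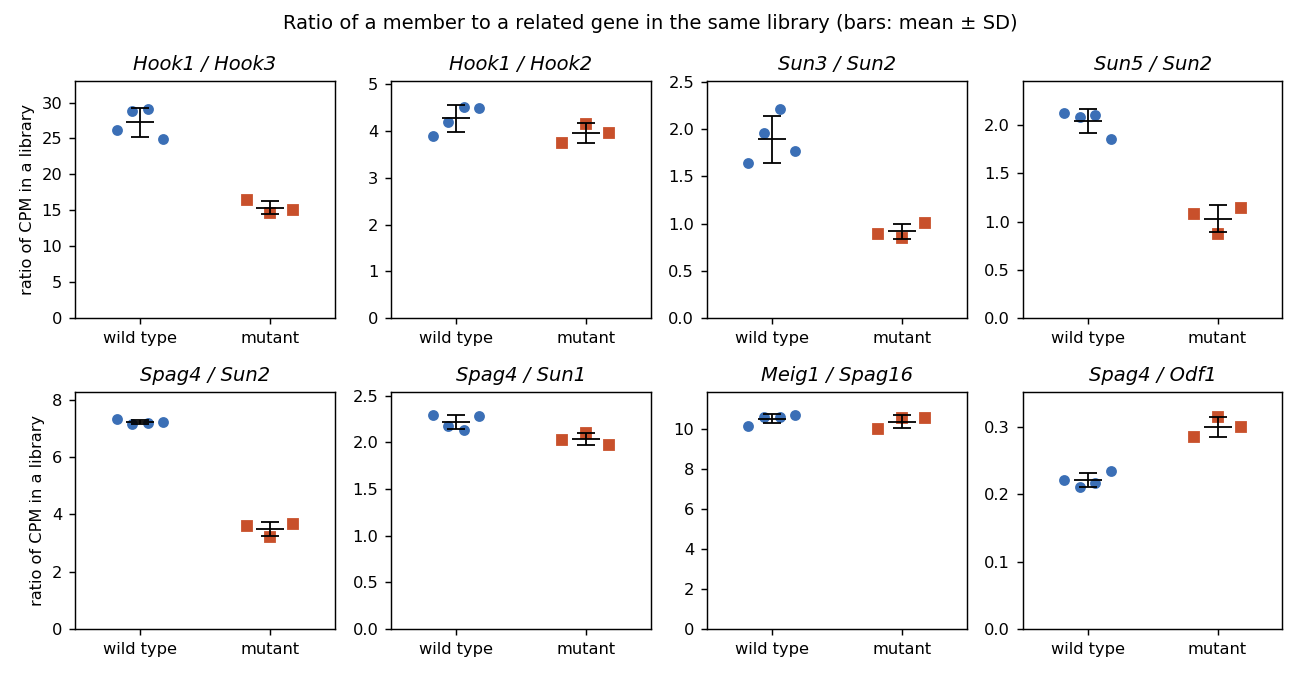
Ratio of the CPM of a gene to that of a related gene in the same library for 8 of the 14 pairs, on axes that start at 0, with wild types 1 to 4 as circles, mutants 1, 2 and 4 as squares and bars for the mean ± SD. Ratios to Hook3 and Sun2 fall far below the wild types, the ratios of Hook1 to Hook2 and of Meig1 to Spag16 overlap, and the ratio of Spag4 to Odf1 is higher in the mutants.

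Each of the 8 genes had a nearest pattern among 11163 other genes with a mean of at least 10 CPM, measured as the root mean square difference of centred log2 values over the 7 libraries. It was Rgs22 for Hook1 (difference 0.01), Angel1 for Rimbp3 (0.01), Gsto2 for Meig1 (0.02), Fhod1 for Katnal1 (0.02), Cutc for Sun3 (0.03), Cfap157 for Sun5 (0.02), Pfkfb3 for Spag4 (0.03) and G6pc3 for Ccdc42 (0.02). Gsto2 had 251 ± 2.90 CPM in wild types and 197 ± 3.84 CPM in mutants, a log2 fold change of -0.35 like that of Meig1, and Rgs22 had -0.22. These genes were picked for likeness in the same libraries, so a similar fold change follows from the choice and shows no shared control.

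Some of the 8 genes share bases with annotated genes on the opposite strand, intron bases included, and whether the counting used strand is not given in the sources used here, so reads in the shared bases are uncertain. Sun3 shares 416 bp with Gm11992 (45.0 CPM in wild types and 40.6 CPM in mutants). Hook1 shares 475 bp with 9530080O11Rik (7.07 and 6.16 CPM) and Ccdc42 shares 727 bp with Ccdc42os (4.07 and 4.96 CPM), and both neighbours were far below the gene they overlap. Further annotated genes on the opposite strand, for which no values were used here, share 16957 bp with Sun3 (Gm73296), 163 bp with Spag4 (Cpne1), 160 bp with Spag4 (Gm28036) and up to 5913 bp with Katnal1 (Gm15409, the longest of its overlaps on that strand). On its own strand, where strand cannot tell reads apart, Katnal1 shares up to 46251 bp with annotated genes (Gm15406), also without values used here.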

How the data were processed

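Total RNA of adult testis, 1 library per mouse, was sequenced by the authors. Per the labels and the study's methods, they used Trimmomatic for trimming, Subread for mapping to GRCm39 and featureCounts for counting. Genes had to reach 75 reads in 2 samples of either group, and 1 mutant was left out as an outlier after normalization. The annotation release and the strand setting are not given in the sources used here. The authors deposited CPM values for 17127 genes. Each library sums to 1000000, and every value was a whole multiple (within 0.01) of 1 step of 0.0266 to 0.0312 CPM. Taken as 1 read, that step gives the library sizes quoted, and counting error covers counting only.

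Libraries were grouped by the labels. A linear model of log2(CPM + 0.1) on genotype was fitted with limma 3.58.1 under R 4.3.3, with moderated variances that follow a trend in level, for the 17126 genes that reached 2.2 CPM in 2 samples of either group, with Benjamini-Hochberg adjustment over all of them and calls at an FDR below 0.01. On simulated data for 16523 genes with 200 changed, 180 were called with 1 unchanged gene, and 0 were called when none was changed. The simulation gave every gene the same dispersion. Of the genes described here, all but Meig1 changed by less in CPM than any gene changed there, so recovery at such sizes was not tested. Single genes and ratios used two-sided exact permutation tests over 35 splits, whose doubled smaller tail is at least 0.0571. Symbols (17045 genes, 99.5%), coordinates and transcript starts came from GENCODE release M39, and the sequences from the GRCm39 genome. Tables were made with pandas 2.3.3, NumPy 2.4.6 and SciPy 1.17.1 under Python 3.11.15, and plots with matplotlib 3.10.9.

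The 8 genes and all lists were chosen with earlier results of these data known. Named genes were the 8, genes of the manchette, nuclear envelope and partner lists with at least the lowest and highest fold change of each, the gene of nearest pattern, and Iqch. Marker lists had 10 round spermatid, 9 elongating spermatid, 9 spermatocyte (1 lower and 1 higher), 8 spermatogonium (3 higher), 8 Sertoli, 7 Leydig, 7 macrophage, 5 myoid (1 higher) and 5 endothelial (2 higher) genes. Fshr, Tagln and Tie1 were not used here, and the manchette counts and ratios omit 2 manchette genes that are not reported here. Alternatives were other pseudocounts, minimum levels and scalings, the replicate number as a block, each library left out and an FDR of 0.05. Centring on elongating spermatid markers and ratios within libraries were chosen after seeing the data.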

Additional observations from a re-analysis of the deposited data

Results flagged for a closer look

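Of 47 genes looked at for a wild-type library far from the others, 1 stood apart: Katnal2, the katanin relative, had 95.3 CPM in wild type 4, while the other 3 wild types held 105.9 to 106.9 CPM. A rule of this kind picks about 1 in 20 groups by chance. Katnal2 was lower in every mutant than in wild type 4, at 79.5 to 84.0 CPM.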

How the results depend on the processing

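A pseudocount of 1 or 0.01 CPM, no minimum and a minimum of 5 CPM changed no call of the 8 genes. Scaling did. After median-of-ratios scaling 8 of the 8 genes, 11 other manchette genes and 3 other nuclear envelope genes were called lower (25.1% of all genes tested). Here and below the other nuclear envelope counts include Syne4, which reached the minimum in the mutants alone. After centring on round spermatid markers 3.91% of all genes tested were called lower and 52.1% higher. Called lower there were 0 of the 8 genes, 0 other manchette, 0 other nuclear envelope and 1 partner gene. Called higher were 0 of the 8 genes, 5 other manchette and 9 other nuclear envelope genes. The log2 fold changes that turned positive there, none of them called, were 0.0069 (Hook1), 0.073 (Katnal1), 0.056 (Sun3), 0.10 (Sun5), 0.041 (Spag4) and 0.0081 (Ccdc42). After centring on elongating spermatid markers, chosen after seeing the data, 1.19% of all genes tested were called lower and 86.8% higher. Called lower there were 0 of the 8, 0 other manchette, 0 other nuclear envelope and 0 partner genes, and called higher 8, 16, 14 and 4. The log2 fold changes were 0.38 (Hook1), 0.34 (Rimbp3), 0.23 (Meig1), 0.44 (Katnal1), 0.43 (Sun3), 0.47 (Sun5), 0.41 (Spag4) and 0.38 (Ccdc42). By construction, each centring sets a marker list that is itself lower in CPM to no change.

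At an FDR below 0.05, 7 of the 8 genes and 2 other nuclear envelope genes were called lower (19.8% of all genes tested). Leaving out each library in turn, 3 to 4 of the 8 genes and 3 to 6 other manchette genes were called lower, and no sign among the 8 changed. Over all genes, from 1934 of 17097 (without mutant 2) to 2392 of 17126 (without wild type 4) were called lower. Meig1 had -0.36 to -0.35, Rimbp3 -0.26 to -0.21 and Hook1 -0.24 to -0.18, all called in each case, while Katnal1 and Sun5 were called in none.

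Libraries of the same number did not deviate together (correlations of 0.026, 0.0094 and -0.098). The sample titles name no pairing, and so few pairs cannot show whether the numbers pair the mice. With the replicate block, 3 other manchette genes in place of 5 and 4 of the 8 genes were called lower, with Spag4 gained (limma FDR 0.00292) and Ccdc42 lost (limma FDR 0.0126). Over all genes 2139 of 17126 were called lower with the block. With no mutant 3, the block takes wild type 3 out of the genotype comparison. The log2 fold changes of the 8 genes equalled those without wild type 3 (-0.22 for Spag4 and -0.19 for Ccdc42 in both fits). Over all genes 7722 were called with the block and 8640 without.

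A count test on reads worked back from CPM was not run, because the table holds too few low values to accept them as reads. The library sizes and counting errors quoted rest on reads worked back in the same way and share that limit. The standard errors of the 8 genes were 0.03 to 0.06 on the log2 scale, against a median of 0.08 over all genes, and no smallest detectable change was worked out.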
